A study of Mus musculus with 7 samples.

Results

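The cells described are the Neu tumor cells with little Lalba RNA. Lalba encodes alpha-lactalbumin, the milk protein that joins a galactosyltransferase to form lactose synthase. Cells of both Neu libraries entered with at least 3000 UMIs (unique molecular identifiers, each a counted RNA molecule), at least 500 detected genes and under 20% of their UMIs from mitochondrially encoded genes. Cells were then selected on Lalba itself, as fewer than 10 Lalba UMIs per 10,000 UMIs of the cell. There were 680 such cells among 4023 Neu cells that passed the filters (of 4567 deposited Neu barcodes) and among 11474 cells of the whole series. They were set beside 2148 cells of the same tumors with 40 or more Lalba UMIs per 10,000, called high-Lalba cells below. The 1195 cells in between form the middle class.

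The series holds single-cell transcriptomes of CD24+ cells, depleted of CD31+, CD45+ and Ter119+ cells by sorting, in 7 libraries from 4 mouse mammary tumor models. The Neu tumors were spontaneous and untreated, from adult FVB/NJ mice in which the MMTV promoter, active in mammary epithelium, drives the Neu oncogene. The strain had been crossed with FIP200 F/F mice, and the study's methods describe tumor A as floxed for FIP200 without Cre. Each library is 1 tumor, and the tumors A and B were sequenced in separate batches, so tumor and batch cannot be told apart. All classes of Lalba share the tumor, the enzymatic dissociation at 37 degrees, the sort and the library, and 2 tumors are the replicates here. The PyMT libraries came from transplants of FF99WT cells, a line made from 1 MMTV-PyMT tumor, into FVB/NJ mice, the 4T1 library from a transplant of that line into BALB/C mice, and the BRCA1-null libraries from spontaneous tumors of FVB/NJ mice in which K14-Cre deletes floxed Brca1 and P53 alleles. These serve below only as a reference for the Lalba level.

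Alveolar cells of the mammary gland turn on milk genes in pregnancy and lactation, when prolactin acts through JAK2 and the transcription factor STAT5 on the genes of the caseins, of whey proteins such as alpha-lactalbumin, and of lipid synthesis. Luminal progenitor cells lie upstream of alveolar cells, carry the keratins 8 and 18 of all luminal cells, and express milk genes weakly. At weaning the gland involutes under STAT3, with lysosomal proteases and inflammatory genes. Immediate early and heat shock genes respond within minutes to hours to growth factors, heat and tissue dissociation. Low Lalba RNA alone therefore does not name a cell type.

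The Lalba level fell off gradually from the high-Lalba cells to the low-Lalba cells, with no gap at the limit. In tumor A, 12.2% (exact 95% interval 10.8 to 13.7%) of 2075 cells were low, and in tumor B 21.9% (exact 95% interval 20.1 to 23.8%) of 1948 cells. The intervals cover counting error only. High-Lalba cells made up 61.7% (exact 95% interval 59.6 to 63.8%) in tumor A and 44.6% (exact 95% interval 42.3 to 46.8%) in tumor B. The median of the low-Lalba cells was 2.9 per 10,000 in tumor A and 3.88 in tumor B, and that of the high-Lalba cells 77.4 and 73.1. In counts, the median low-Lalba cell held 2 Lalba UMIs in tumor A and 5 in tumor B. No Lalba UMI at all was seen in 54 of the 253 low cells of tumor A and in 37 of the 427 of tumor B. Just inside the limit, 15 cells of tumor A and 29 of tumor B lay between 9.03 and 9.98 per 10,000, and just outside it 15 and 23 cells lay between 10.04 and 10.95. A cell without a Lalba UMI and a cell at 9 per 10,000 thus fall in the same class.

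**Figure D1:**
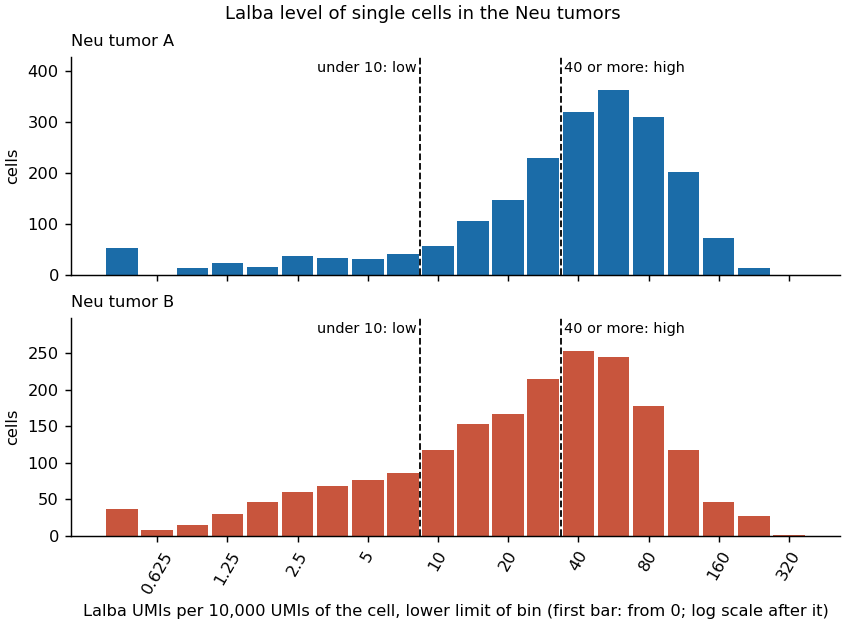
Number of cells (vertical axis) by Lalba UMIs per 10,000 UMIs of the cell (horizontal axis, log scale after the first bar) for Neu tumors A and B, all cells that passed the filters. The dashed lines are the limits of the classes, and neither tumor shows a gap at 10 per 10,000, below which lie 253 and 427 cells.

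Low Lalba was the rule in the other tumors. In the other 5 libraries cells under 10 per 10,000 were the majority, from 69.7% in PyMT tumor B to 100% in the 4T1 tumor, where 85.5% of 1685 cells had no Lalba UMI. In the Neu tumors only 2.6% and 1.9% of cells had none. These shares describe the rule and were not tested.

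Epithelial markers were present in low-Lalba cells at levels above those of the high-Lalba cells of the same tumor. Over the cells of 5000 to 15,000 UMIs used for the comparison, Epcam, an epithelial adhesion protein, stood at 3654 and 3134 CPM (UMIs of a gene scaled to a common total of UMIs without Lalba) in the low-Lalba cells of tumors A and B, and at 3199 and 2429 CPM in the high-Lalba cells. Krt8 and Krt18, the keratins of luminal cells, are described below. Ptprc (the leukocyte antigen CD45) and Hbb-bs (a globin) were at 0 UMIs in all classes. The endothelial gene Pecam1 gave 0 and 2 UMIs in the low-Lalba cells. Markers of other cell types were few but not absent. The 12 leukocyte markers summed to 38.2 and 9.0 CPM in low-Lalba cells against 11.7 and 6.76 in high-Lalba cells, with 9 and 6 of them seen. The 6 fibroblast markers summed to 271 CPM in the low-Lalba cells of tumor A and to 6.66 in those of tumor B, against 2.73 and 7.03 in the high-Lalba cells. In tumor A, 1 low-Lalba cell carried UMIs of at least 2 different fibroblast markers and 4 carried at least 2 leukocyte markers. The endothelial list reached at most 1.56 CPM in low-Lalba cells, the pericyte list 14.5, the erythroid list 2.35 and the adipocyte list 0.391. The 12 basal markers summed to 66.3 and 85.3 CPM in low-Lalba cells against 40.0 and 26.2.

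Low-Lalba cells were shallower than the high-Lalba cells of their own tumor, with medians of 6210 against 10264 UMIs in tumor A and 12321 against 16652 in tumor B, while mitochondrial shares were alike (medians 3.43 against 3.43% and 4.35 against 4.18%). For the comparison the depth was limited to 5000 to 15,000 UMIs, which left 154 low and 866 high cells in tumor A and 249 low and 339 high cells in tumor B. Medians then were 7524 against 9774 UMIs and 10440 against 11419. UMIs were summed per tumor and class, which gave 1282032 and 2554483 UMIs for low-Lalba cells and 8435194 and 3696731 for high-Lalba cells. The barcodes of 2 and 10 low-Lalba cells of tumors A and B also occurred in another library, and leaving such cells out gave 299 and 190 calls, as with them.

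The promoters of the milk genes and of the chemokine genes met below were searched for the letters of their known regulators. A search of 250 bases before each RefSeq start (GRCm38.p6, the mm10 assembly) used TTCNNNGAA, the palindromic core bound by STAT factors, and GGG and TTTCC with 2 bases of any kind between them, a core bound by NF-kB, on both strands. The STAT letters were found in 7.02% of 32851 promoters, and the NF-kB letters in 1.41%. The Lalba window held no STAT letters. Of 3 casein genes with a promoter in the table, Csn1s1 and Csn2 held them, and of 8 other milk protein genes 1 did (Glycam1). Of 11 NF-kB list genes, 7 held the NF-kB letters, Cxcl1 and Cxcl2 among them with 2 matches each. That list was put together as NF-kB genes, so its matches say nothing about these cells. The STAT letters were also in 2 of those 11 genes and in 3 of 16 genes of the STAT3 axis and involution. Shown are 120 bases up to the start, 5′ to 3′ on the strand of the gene, with the matched letters in capitals. Lalba (chr15:98482684-98482803, minus strand) is the gene that chose the cells, Csn1s1 (chr5:87666088-87666207, plus) and Csn2 (chr5:87699426-87699545, minus) stand for the caseins, and Cxcl1 (chr5:90891125-90891244, plus) and Cxcl2 (chr5:90903779-90903898, plus) are neighboring chemokine genes. A match is a description of letters and not a measured binding site.
Lalba: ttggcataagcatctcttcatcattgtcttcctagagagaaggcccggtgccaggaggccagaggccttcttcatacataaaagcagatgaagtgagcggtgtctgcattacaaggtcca
Csn1s1: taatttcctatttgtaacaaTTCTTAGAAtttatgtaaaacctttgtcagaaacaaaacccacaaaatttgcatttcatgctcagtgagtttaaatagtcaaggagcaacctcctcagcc
Csn2: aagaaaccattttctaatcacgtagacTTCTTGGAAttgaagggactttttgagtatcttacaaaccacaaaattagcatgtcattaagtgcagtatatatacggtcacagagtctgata
Cxcl1: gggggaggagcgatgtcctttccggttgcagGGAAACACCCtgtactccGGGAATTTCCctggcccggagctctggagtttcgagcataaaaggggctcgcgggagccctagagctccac
Cxcl2: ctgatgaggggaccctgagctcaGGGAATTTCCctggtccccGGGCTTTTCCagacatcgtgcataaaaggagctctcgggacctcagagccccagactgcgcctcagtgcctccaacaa

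In low-Lalba cells, genes of milk proteins, lipid synthesis and the endoplasmic reticulum were among those lower, and keratins, immediate early, heat shock and NF-kB genes among those higher, with the count of each group given below. Of 9454 genes tested, 299 were higher (3.16% of those tested) and 190 lower (2.01%) in low-Lalba cells at an adjusted p under 0.05 (edgeR quasi-likelihood test, tumor as a block, Benjamini-Hochberg). Lalba was left out of the table, since it had chosen the cells. Levels of single genes below are CPM with TMM scaling, values after them in parentheses are log2 fold changes, low over high, and ± is the standard error. Over all tested genes the median log2 fold change, low over high, was 0.01. The test rests on 2 tumors and 1 residual degree of freedom. On the same sums DESeq2 called 85 genes higher and 37 lower, and without the tumor as a block, which leaves the difference between the tumors in the error, no gene passed (282 higher and 176 lower at an unadjusted p under 0.05).

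Of the 3 genes given as markers of these cells, Krt18 and Malat1 were higher and Cldn10 was not called. Krt18, the type I keratin of luminal epithelium, was at 1878 and 4465 CPM in the low-Lalba cells of tumors A and B against 962 and 2354 CPM in their high-Lalba cells (log2 fold change 0.94 ± 0.07 SE, edgeR adjusted p = 2.2e-06). The low-Lalba cells were above the high-Lalba cells within each tumor, although those of tumor A lay below the high-Lalba cells of tumor B. Malat1, a long noncoding RNA retained in the nucleus, was at 14342 and 16062 CPM in the low-Lalba cells of tumors A and B against 10634 and 10886 CPM in their high-Lalba cells (log2 fold change 0.50 ± 0.05, edgeR adjusted p = 3.8e-05), and here both low values exceeded both high values. With DESeq2 the adjusted p of Malat1 was 0.064. Cldn10, a tight junction claudin, was at 325 and 672 CPM in the low-Lalba cells of tumors A and B against 277 and 732 CPM in their high-Lalba cells, higher in 1 tumor and lower in the other (log2 fold change 0.05 ± 0.11, edgeR adjusted p = 0.86). Neat1, another nuclear long noncoding RNA, was higher too, at 969.5 and 483 against 619 and 271 CPM (0.74, edgeR adjusted p = 2.2e-04). In single cells of tumor A the median of Krt18 was 14 UMIs per 10,000 in low-Lalba and 8.9 in high-Lalba cells, and in tumor B 33.9 and 18.2. The classes overlapped, since 20.1% and 15.3% of low-Lalba cells lay below the median of the high-Lalba cells.

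**Figure D2:**
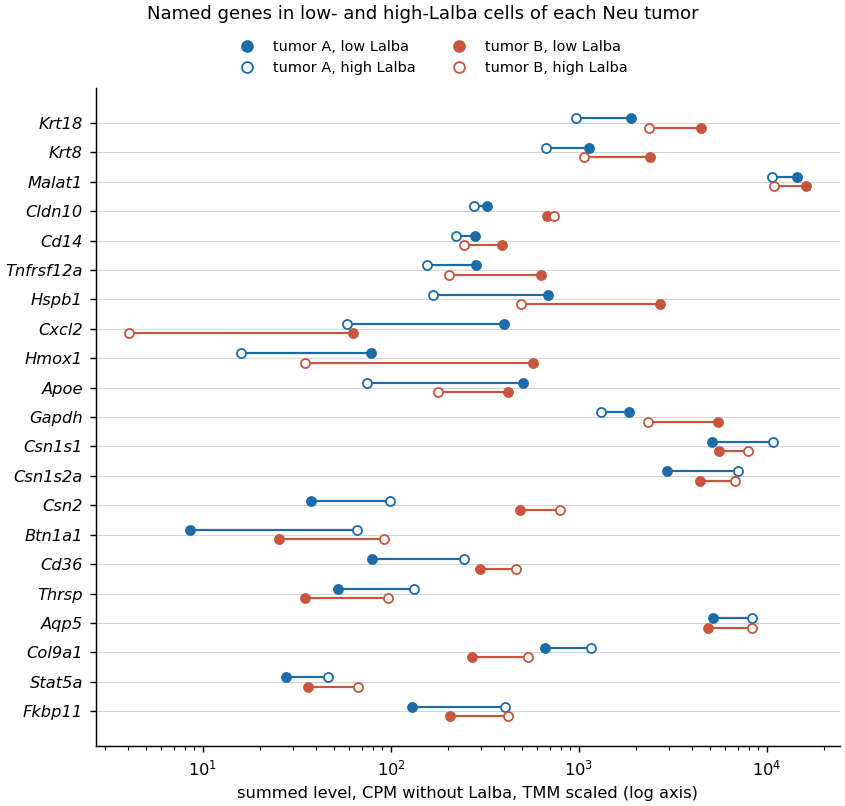
Level of 21 genes in the summed cells of each Neu tumor (CPM without Lalba, scaled by TMM factors, log axis), low Lalba as filled and high Lalba as open circles joined by a line. Krt18, Hspb1 and Hmox1 lie to the right in low-Lalba cells of both tumors, Csn1s1, Btn1a1 and Aqp5 to the left, and Cldn10 at 325 against 277 CPM in tumor A and 672 against 732 in tumor B.

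Of 5 caseins, the main micelle proteins of milk, 4 were lower and none higher, with a median log2 fold change of -0.80. Csn1s1 (alpha-s1 casein) was at 5118 and 5524 CPM in the low-Lalba cells of tumors A and B against 10798 and 7935 CPM in their high-Lalba cells (log2 fold change -0.80 ± 0.09, edgeR adjusted p = 7.3e-05). Csn1s2a was at 2931 and 4389 against 7004 and 6770.2 CPM (-0.94, edgeR adjusted p = 4.3e-05). Csn2 (beta-casein) was at 37.8 and 485 against 98.5 and 794 CPM (-0.94, edgeR adjusted p = 6.5e-04), so its level differed more between the tumors than between the classes. Csn3 (kappa-casein) fell least of the called caseins, by 0.38 on the log2 scale, and stayed at 19694 and 29261 CPM in low-Lalba cells. Csn1s2b was at -0.34 and not called. How much of the casein RNA counted in low-Lalba cells was free RNA from other cells of the tumor was not tested.

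Of 10 other milk proteins tested, 6 were lower and none higher (median -0.41), while DESeq2 called 3 lower. Btn1a1, the butyrophilin of the milk fat globule membrane, was at 8.55 and 25.5 CPM in the low-Lalba cells of tumors A and B against 65.8 and 91.9 CPM in their high-Lalba cells (log2 fold change -2.19 ± 0.22, edgeR adjusted p = 2.5e-05). Folr1, a folate receptor, was at 229 and 621 against 510.0 and 923 CPM (-0.85, edgeR adjusted p = 5.0e-04). Trf (transferrin) and Wfdc18 fell by 0.45 and 0.37 on the log2 scale from a high level, Trf being at 24578 and 30520 against 35562 and 39210 CPM. Wap, whey acidic protein, named after its values were seen, was scarce in these tumors, at 1.42 and 9.51 against 8.94 and 30.7 CPM (-1.84, edgeR adjusted p = 0.003). The 9 tested genes of lactose synthesis and sugar transport behaved otherwise, with none lower and 1 higher, the glucose transporter Slc2a1 (106 and 99.8 against 73 and 60.6 CPM, 0.63).

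Genes of lipid uptake and synthesis were lower in 5 of 14 cases and higher in none (median -0.52), while DESeq2 called 2 lower. Thrsp, a regulator of fatty acid synthesis in the lactating gland, was at 52 and 35 CPM in the low-Lalba cells of tumors A and B against 132 and 96.9 CPM in their high-Lalba cells (log2 fold change -1.40 ± 0.15, edgeR adjusted p = 3.3e-05). Cd36, a fatty acid transporter, was at 79.1 and 297 against 245 and 460.0 CPM (-1.06, edgeR adjusted p = 0.0014), and its low-Lalba value in tumor B exceeded the high-Lalba value of tumor A. Acsl4, Srebf1 and Insig1 fell by 0.51, 0.49 and 1.00 on the log2 scale. Of 13 cholesterol synthesis genes only Fdps was called, lower (-0.74, edgeR adjusted p = 0.015).

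Among 13 tested genes of the prolactin and STAT5 axis and other alveolar regulators, 4 were lower and none higher (median -0.37). Stat5a, the transcription factor downstream of the prolactin receptor, was at 27.8 and 36.3 CPM in the low-Lalba cells of tumors A and B against 46.5 and 67 CPM in their high-Lalba cells (log2 fold change -0.82 ± 0.18, edgeR adjusted p = 0.012). Socs2, a feedback inhibitor of this pathway, fell by 0.43 and the luminal factor Gata3 by 0.56 on the log2 scale. Cited4, a transcriptional coactivator of alveolar cells, was at 206 and 204 against 239 and 370.1 CPM (-0.54, edgeR adjusted p = 0.032). Elf5, the other master factor of alveolar cells, named after its values were seen, was not called, at 94 and 98.5 against 111 and 113 CPM (-0.22). No gene of this list was called by DESeq2.

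Of 20 genes of folding and stress in the endoplasmic reticulum, 9 were lower and 1 higher (median -0.27), while DESeq2 called 3 lower and 0 higher. Fkbp11, a prolyl isomerase of secretory cells, was at 129.6 and 205 CPM in the low-Lalba cells of tumors A and B against 405 and 420 CPM in their high-Lalba cells (log2 fold change -1.32 ± 0.14, edgeR adjusted p = 2.6e-05). Sdf2l1, Manf and Xbp1, the last being the transcription factor of the unfolded protein response, fell by 0.91, 0.71 and 0.48 on the log2 scale. The exception was Ddit3 (CHOP), a stress-induced transcription factor, at 27.1 and 60.5 against 13.4 and 32.2 CPM (0.95, edgeR adjusted p = 0.0096).

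Of 15 tested luminal keratins and junction genes, 8 were higher and 1 lower (median 0.64), while DESeq2 called 5 higher. Krt8, the partner of Krt18 in luminal filaments, was at 1129 and 2397 CPM in the low-Lalba cells of tumors A and B against 669.6 and 1058 CPM in their high-Lalba cells (log2 fold change 0.97 ± 0.10, edgeR adjusted p = 2.4e-05). Sfn, the epithelial 14-3-3 protein sigma, was at 632 and 669.5 against 246 and 159 CPM (1.71, edgeR adjusted p = 2.9e-06), and Cldn4, a claudin, at 340.5 and 1113 against 161 and 289 CPM (1.53, edgeR adjusted p = 2.0e-05). For both, every low-Lalba value exceeded every high-Lalba value. Sdc4, a syndecan, was at 899 and 518 against 643 and 317 CPM (0.59). Cldn8 was the gene that fell, at 15.7 and 5.62 against 30.2 and 16.5 CPM (-1.19, edgeR adjusted p = 0.017). Krt7 was not called (0.67, edgeR adjusted p = 0.06).

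Of 11 tested luminal progenitor genes, 3 were higher and none lower, with a median of 0.05. Besides Krt18 these were Lcn2, a siderophore-binding secreted protein, at 11432 and 10877 against 10061 and 8307 CPM (0.29, edgeR adjusted p = 0.0095), and Cd14, the lipopolysaccharide coreceptor used to sort luminal progenitors, at 280.0 and 389.9 against 221 and 245 CPM (0.51, edgeR adjusted p = 0.016). Cd14 was 1 of 5 tested genes of the CD14 and toll-like receptor list, and the other 4 were not called. Of the 11 luminal progenitor genes, 7 lay above 0 and 4 below. Those below were Tnfrsf11a (-0.78, edgeR adjusted p = 0.057), Itgb3 (-0.66), Gabrp (-0.26) and Kit (-0.20), none of them called. DESeq2 called 1 gene of the luminal progenitor list higher and 0 genes of the CD14 and toll-like receptor list.

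Of 16 immediate early genes, 11 were higher and none lower (median 0.73). Klf6, Fosb, Jun and Atf3 are transcription factors induced within minutes of a stimulus. Klf6 was at 292 and 421 CPM in the low-Lalba cells of tumors A and B against 125 and 157 CPM in their high-Lalba cells (log2 fold change 1.33 ± 0.11, edgeR adjusted p = 5.5e-06). Fosb was at 102 and 23.3 against 19.4 and 7.25 CPM (2.18, edgeR adjusted p = 2.5e-05), and its high-Lalba value in tumor A was close to its low-Lalba value in tumor B. Jun and Atf3 were higher by 0.92 and 1.02 on the log2 scale. Of 11 heat shock and dissociation genes, 4 were higher and none lower (median 0.58). Hspb1, a small heat shock protein, was at 684 and 2703 CPM in the low-Lalba cells of tumors A and B against 166 and 491 CPM in their high-Lalba cells (log2 fold change 2.26 ± 0.11, edgeR adjusted p = 1.0e-08), the smallest p of the genes named. The chaperone genes Hspa1a (1.46) and Hsp90aa1 (0.88) were higher as well. Hspa1b was higher as well, at 27.8 and 112 against 11.6 and 36 CPM, but it is a near-identical copy of Hspa1a and reads of the pair may be split between them.

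Of 13 NF-kB genes, 6 were higher and none lower (median 0.82). Tnfrsf12a, the receptor of TWEAK, was at 283 and 624 CPM in the low-Lalba cells of tumors A and B against 156 and 203 CPM in their high-Lalba cells (log2 fold change 1.25 ± 0.15, edgeR adjusted p = 7.9e-05). Nfkbia, the inhibitor that NF-kB induces, was at 705 and 332 against 421 and 176 CPM (0.82, edgeR adjusted p = 1.4e-04). Cxcl1 and Cxcl2, neutrophil-attracting chemokines whose promoter letters are printed above, were at 804 and 133 against 349 and 69 CPM (1.09) and at 401 and 62.7 against 58.5 and 4.06 CPM (3.01, edgeR adjusted p = 2.4e-07). Of 17 genes of the STAT3 axis and involution, 6 were higher and none lower (median 0.29), while DESeq2 called 2 higher. Ctsl, a lysosomal protease, was at 471 and 485 against 231 and 200.4 CPM (1.15, edgeR adjusted p = 1.4e-05). Nupr1, Cebpd and the oncostatin M receptor Osmr were higher by 0.61, 0.38 and 0.56, while Bcl3, named with Osmr as a STAT3 target in the study, was at -0.39 and not called.

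**Figure D3:**
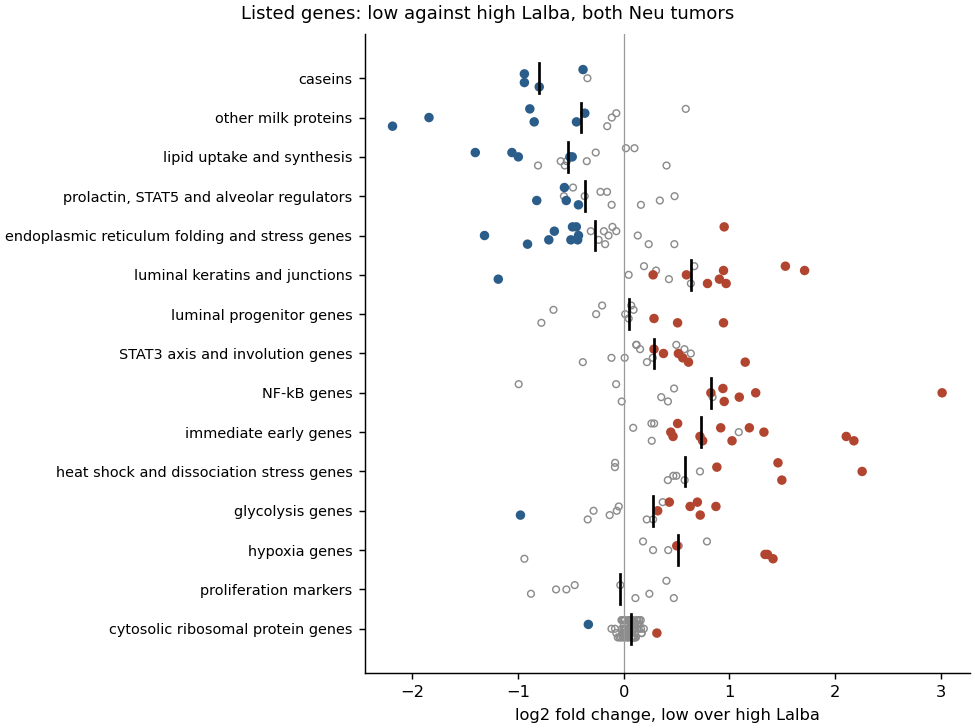
Log2 fold change, low over high Lalba, of every tested gene of 15 lists, with called genes filled (red higher, blue lower), other genes open and the list median as a black bar. Caseins have their median at -0.80 and NF-kB genes at 0.82, while ribosomal protein genes lie at 0.07.

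Since stress genes moved with the class, the comparison was repeated, after the data were seen, on cells whose summed immediate early and heat shock UMIs were at or below the median of the high-Lalba cells of their tumor. In tumor A the median of this sum was 93.2 UMIs per 10,000 in low-Lalba and 71.7 in high-Lalba cells, and in tumor B 78.7 and 35.5. The limit left 40 and 34 low-Lalba cells and 433 and 170 high-Lalba cells. With 7164 genes tested, 49 were higher (0.684%) and 40 lower (0.558%). The caseins were lower in 3 of 5 cases, with a median of -1.503, further from 0 than in all cells. Csn2 was at -2.39 (adjusted p = 2.7e-06 by edgeR), Btn1a1 at -2.75 and Fkbp11 at -1.38, all called lower. How the few Csn2 UMIs of tumor A were spread over these cells was not examined. Krt18 was still called higher, at 0.83 (edgeR adjusted p = 0.0024).

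Other genes lost their call in these cells. Malat1 was at -0.05 (edgeR adjusted p = 0.96), Krt8 at 0.48 and Cldn4 at -0.11. Sfn was at -0.44, Nfkbia at -0.37, Tnfrsf12a at -0.01 and Hspb1 at 0.21, none of them called. Ddit3 was at 0.45 (edgeR adjusted p = 0.76) and not called. Cd14 was at 0.55 (edgeR adjusted p = 0.37) and Lcn2 at 0.13 (edgeR adjusted p = 0.85), so of the luminal progenitor list only Krt18 was called. Cxcl1 was called in the opposite direction, at -1.67 (edgeR adjusted p = 0.0014). Of the immediate early and heat shock genes, which set this limit, none was called, and of the NF-kB list none was called higher. Of the STAT3 and involution list none was called (median 0.08). Of the luminal keratins and junction genes only Krt18 was called, and the median of the list was 0.0021, against 0.64 in all cells. On the lower side 3 other milk protein genes, 3 genes of the endoplasmic reticulum list, 2 lipid genes and 0 genes of the prolactin and STAT5 list were called. Aqp5, Cited4 and Stat5a were at -0.27, 0.21 and -1.02 and not called. This fit holds fewer cells, UMIs and genes than that of all cells, and the part of this in the lost calls was not tested.

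**Figure D4:**
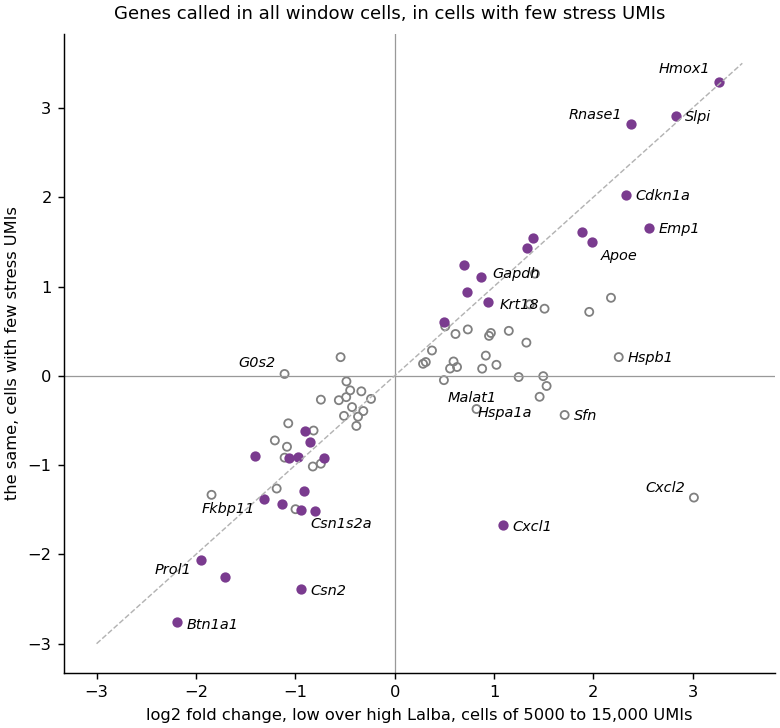
Log2 fold change, low over high Lalba, of the called genes named in the text in all cells of 5000 to 15,000 UMIs (horizontal) and in cells with few stress UMIs (vertical), filled where called in the latter and with equal values on the dashed line. Krt18 and Hmox1 lie near the line, Csn2 below it, and Hspb1, Sfn and Cxcl2 near or below 0 on the vertical axis.

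Of 15 glycolysis genes, 6 were higher and 1 lower (median 0.28), while DESeq2 called 2 higher. Gapdh was at 1841 and 5514 CPM in the low-Lalba cells of tumors A and B against 1311 and 2319.6 CPM in their high-Lalba cells (log2 fold change 0.87 ± 0.12, edgeR adjusted p = 3.8e-04). Pgk1 and Pfkp were higher by 0.72 and 0.70 on the log2 scale. The 1 lower gene was Aldoc, the aldolase C isoform, at 1912 and 2402 against 4759 and 3747 CPM (-0.98, edgeR adjusted p = 6.5e-05). Of 10 tested hypoxia genes, 4 were higher and none lower (median 0.51). Bnip3, a mitophagy receptor, was at 52.7 and 112 against 27.7 and 34.8 CPM (1.34), Ero1l, an oxidase of disulfide bonds, at 44.9 and 127 against 27.8 and 31.3 CPM (1.41), Ndrg1 at 1.36 and Txnip at 0.50. In the cells with few stress UMIs, 7 glycolysis genes were higher and Aldoc lower, with Gapdh at 1.11, Pgk1 at 0.94 and Pfkp at 1.24. Of the 4 hypoxia genes called in all cells, Bnip3 (1.43) and Txnip (0.61) were still called there, while Ndrg1 was at 0.80 (edgeR adjusted p = 0.19) and Ero1l at 1.14 (edgeR adjusted p = 0.062). The sum of the glycolysis genes did not go the same way in both tumors. Their median was 114 UMIs per 10,000 in low-Lalba and 143 in high-Lalba cells of tumor A, where 66.2% of low-Lalba cells lay below the high-Lalba median. In tumor B the medians were 152 and 133. The sum includes Aldoc, at 1912 against 4759 CPM in tumor A, where Gapdh, Pgk1 and Pfkp were higher in low-Lalba cells. The sum of tumor A therefore does not describe each gene of the list.

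Among called genes of at least 50 CPM in a class, the largest rises were those of Hmox1 (heme oxygenase, 3.27), Lypd3 (3.11), Cxcl2, Slpi (a secreted protease inhibitor, 2.84), Emp1 (an epithelial membrane protein, 2.56), Rnase1 (2.38), Cdkn1a (the cell cycle inhibitor p21, 2.33), Hspb1, Fosb, Apoe (apolipoprotein E, 1.99), Maff (1.96) and Ahnak (1.89). Hmox1 was at 78.4 and 568 CPM in the low-Lalba cells of tumors A and B against 15.9 and 35.1 CPM in their high-Lalba cells (log2 fold change 3.27 ± 0.27, edgeR adjusted p = 2.9e-06). Emp1 was at 153 and 108 against 25 and 19.1 CPM (edgeR adjusted p = 1.9e-07). Cdkn1a was at 26.4 and 260.2 against 11.6 and 33.6 CPM, with its low-Lalba value in tumor A below the high-Lalba value of tumor B. In cells with few stress UMIs, Hmox1, Slpi, Emp1, Rnase1, Cdkn1a, Apoe and Ahnak were still called higher. Cxcl2, Hspb1, Fosb and Maff were not called there, and Lypd3 had no value.

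Several of these genes came from few cells. Cxcl2 had UMIs in 14 of 154 and 7 of 249 low-Lalba cells, against 78 of 866 and 5 of 339 high-Lalba cells. The 5 richest low-Lalba cells held 86.1% and 98.6% of its UMIs in their class. Slpi was as uneven, with 80.6% and 95.6% in 5 cells. It had UMIs in 27 of 154 and 12 of 249 low-Lalba cells and in 120 of 866 and 22 of 339 high-Lalba cells. For Apoe the 5 richest cells held 56.2% and 60.5%, and the median cell of either class held none. Hmox1 was spread more widely in tumor B, with UMIs in 104 of 249 low-Lalba and 53 of 339 high-Lalba cells, than in tumor A, with 28 of 154 and 103 of 866. In tumor A the 5 richest low-Lalba cells held 73.6% of its 110 UMIs, 45 of them in 1 cell, and in tumor B 37.7% of 1314. For Rnase1 the shares were 74.7% and 43.8%. After thinning every cell to 3000 UMIs, Hmox1 was seen in 11% and 25.3% of low-Lalba and 4.16% and 5.6% of high-Lalba cells. Cxcl2 was then seen in 7.79% and 2.41% of low-Lalba and 6.0% and 0.295% of high-Lalba cells. For Slpi the thinned shares were 10.4% and 3.21% against 4.62% and 1.47%. For Krt18 the 5 richest cells held 13.6% and 7.36%. Without the cells that carried 2 or more markers of another cell type, Cxcl2 was at 3.05, Slpi at 2.88 and Apoe at 1.86, all still called. DESeq2 did not call Apoe (adjusted p = 0.14). Vim, the intermediate filament of mesenchymal cells and the called gene among 4 tested basal markers, was at 37 and 36.7 against 14.3 and 13.6 CPM (1.40, edgeR adjusted p = 8.2e-04), and lost its call without those cells (0.83, adjusted p = 0.077 by edgeR).

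Among called genes of at least 50 CPM in a class, the largest falls after that of Btn1a1 were those of Prol1 (-1.95), the interferon-induced GTPase gene Iigp1 (-1.70), Thrsp, Scgb1b27 (-1.40), Fkbp11, Rdh12 (a retinol dehydrogenase, -1.21), Cnp (-1.13), G0s2 (an inhibitor of lipolysis, -1.11), Spag5 (-1.11), Rab29 (-1.08) and Pycr1 (proline synthesis, -1.07). Prol1 was present mainly in tumor B, at 45.4 against 205 CPM, and was at 6.41 against 7.71 CPM in tumor A. Scgb1b27 had 0 UMIs in the low-Lalba and 14 in the high-Lalba cells of tumor A, against 478 and 1850 in tumor B. It belongs to a multigene family whose copies may share reads. Its direction turned when doublets were left out (1.56). Tumor B held 3 marked doublets among cells of any depth that passed the filters, all of them high-Lalba cells. The listed fall was thus not seen without the marked doublets, and the cause was not tested. Iigp1 was at 23.5 and 12.5 against 103 and 26.7 CPM (edgeR adjusted p = 3.7e-04).

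No proliferation marker was called among 9 tested (median -0.03). Tyms, Pcna and Birc5, which the study names for dividing Neu cells, were at -0.64, 0.11 and 0.47. Cells with UMIs of at least 2 of 8 mitotic genes made up 1.98% and 5.15% of all low-Lalba cells and 1.72% and 9.33% of high-Lalba cells, at unequal depth. Cdkn1a was higher, as given above, and Ccnd1 (cyclin D1) lower, at 103 and 39.3 against 186 and 67.3 CPM (-0.82, edgeR adjusted p = 0.0021), out of 7 tested D cyclins and inhibitors. DESeq2 called 0 genes of this list in either direction. In cells with few stress UMIs Cdkn1a was still called (2.03, edgeR adjusted p = 0.021) and Ccnd1 was not (-0.61, edgeR adjusted p = 0.17). Erbb2, the mouse gene whose rat homolog is the Neu transgene, was not called (0.21), and of 8 ErbB receptors and ligands only Hbegf, an EGF receptor ligand, was higher (85.5 and 38 against 32.5 and 11.6 CPM, 1.51, edgeR adjusted p = 1.4e-04). Hbegf was at 0.75 in cells with few stress UMIs (edgeR adjusted p = 0.52) and not called.

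Of the 18 genes that the study names for Neu tumor cells, 6 were higher (Cd14, Tnfrsf12a, Nfkbia, Osmr, Malat1 and Krt18) and 6 lower (Csn1s1, Csn1s2a, Cited4, Col9a1, Cd36 and Aqp5). The study chose these genes on the same libraries, so they are not independent of them. Aqp5, a water channel, was at 5144 and 4841 CPM in the low-Lalba cells of tumors A and B against 8338 and 8354 CPM in their high-Lalba cells (log2 fold change -0.74 ± 0.06, edgeR adjusted p = 2.9e-06), with all low values below all high values. Col9a1, a collagen chain, was at 657 and 269 against 1162 and 536 CPM (-0.91, edgeR adjusted p = 3.0e-05). Tspan8 was at -0.27 and not called.

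Over finer bins of the Lalba level, Krt18 and Aqp5 differed across the whole range and not only at the limit. Krt18 stood at 2749.7 CPM (without Lalba, no TMM scaling) in cells of tumor A under 2 Lalba UMIs per 10,000, at 1484 from 5 to 10, at 1173 from 20 to 40 and at 813 at 160 and above. In tumor B the same bins gave 5272, 3464, 2817 and 1569 CPM. Aqp5 ran the other way, from 4218 and 3350.1 CPM under 2 per 10,000 to 10678 and 9978 at 160 and above. Summed caseins were at 27618 and 26978 CPM in the lowest bin, and at 31827 and 43219 from 5 to 10. In tumor B the sum was about level from 5 up to 160 per 10,000 (41505 CPM from 40 to 80), while in tumor A it went on to 55745 CPM from 80 to 160. Malat1 was highest in the lowest bin, at 19935 and 17810 CPM, and at 12087 and 13972 in the next. Cldn10 was lowest in the lowest bin of both tumors, at 251 and 539 CPM, and reached 458 CPM from 5 to 10 in tumor A and 806 from 10 to 20 in tumor B. Hspb1 was at 1261 and 2791 CPM in the lowest bin and at 119.5 and 377 in the highest, and in tumor B it went from 1976 CPM just below the limit to 911 from 10 to 20. Bins hold between 44 and 437 cells and were not tested.

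**Figure D5:**
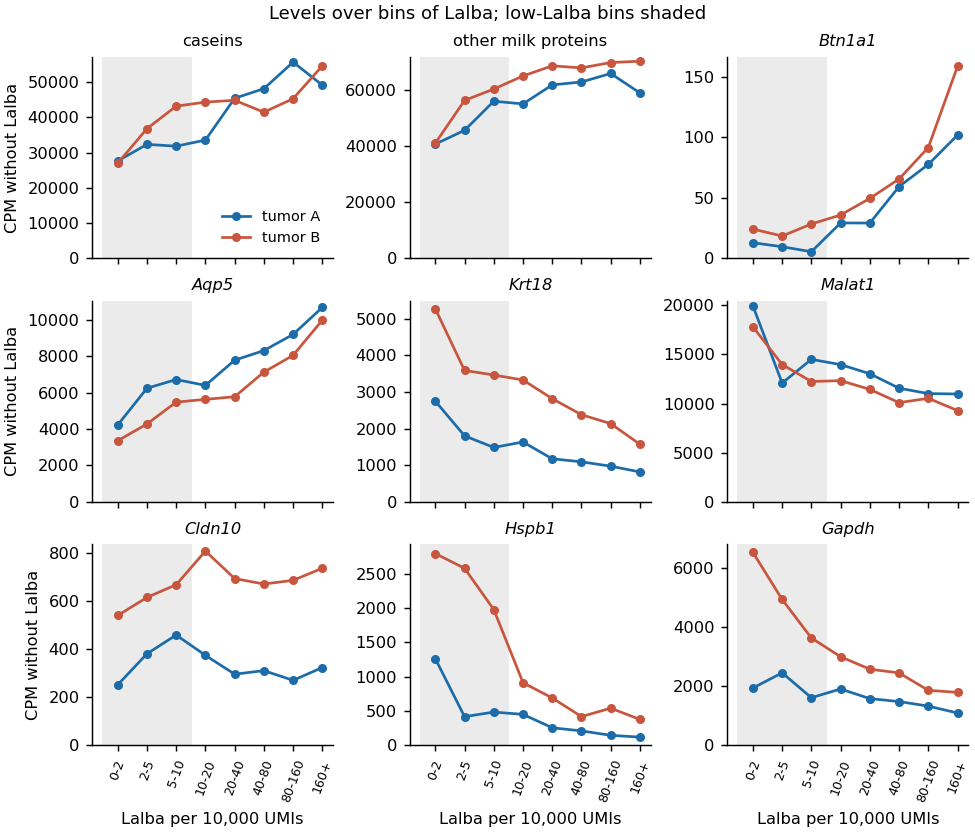
Level (CPM without Lalba, axes from 0) of 2 gene groups and 7 genes in cells of 5000 to 15,000 UMIs, by bin of Lalba UMIs per 10,000 and tumor, low-Lalba bins shaded. Krt18 and Hspb1 lie highest and Aqp5 and caseins lowest at the left, Krt18 with 2750 and 5272 CPM in the first bin.

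The low-Lalba cells were not uniform. Their summed caseins ran in tumor A from 36.8 (10th percentile) over a median of 253 to 619 (90th) UMIs per 10,000, and in tumor B from 29.2 over 249.5 to 766. High-Lalba cells had medians of 414 and 338. A cell low in Lalba was therefore not always low in caseins, and 75.3% of low-Lalba cells in tumor A and 62.2% in tumor B lay below the median of the high-Lalba cells. Stress sums above the 90th percentile of the high-Lalba cells were found in 31.8% and 41% of low-Lalba cells. For sums of the NF-kB genes the shares were 15.6% and 10.8%. Across low-Lalba cells, caseins and other milk proteins varied together (Spearman's rho 0.53 over 154 cells of tumor A and 0.63 over 249 of tumor B). Caseins and Krt18 varied oppositely (-0.29 and -0.31), and Malat1 varied with the stress sum (0.47 and 0.28). Caseins against the stress sum gave -0.30 and -0.02, and Krt18 against the stress sum 0.15 and 0.11. Among high-Lalba cells, caseins gave 0.36 and 0.52 with other milk proteins and -0.14 and -0.21 with Krt18. The stress sum gave 0.16 and 0.21 with Malat1, -0.19 and -0.18 with caseins, and 0.14 and 0.39 with Krt18 there. These are descriptions across cells of 1 library each, which share its depth and a total of UMIs. Across low-Lalba cells the sum of caseins also varied with the UMIs of the cell (0.09 and 0.23). Whether the dissociation, the sort or the state of the cells in the tumor set the stress sum was not tested.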

How the data were processed

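The authors counted UMIs per gene and barcode with Cell Ranger (STAR alignment, prebuilt mm10 reference), and the deposited matrices hold these raw counts, their headers naming version 3.0.2. The processing notes name version 2.2.0 for tumor A and 3.0.2 for tumor B. Barcodes had been called as cells before deposit, and no background correction is named. Cells of at least 3000 UMIs, 500 genes and under 20% mt- UMIs were kept. Counts were summed per tumor and Lalba class over cells of 5000 to 15,000 UMIs, filtered with filterByExpr, scaled with TMM and tested with edgeR 4.0.16's quasi-likelihood test (tumor as a block, Benjamini-Hochberg). Standard errors are the log2 fold change over the root of its F statistic. Named are the 3 markers, the study's Neu genes, up to 12 called genes per direction with at least 50 CPM in a class and 1 direction in both tumors, and up to 4 genes per list with the smallest p. Outside this rule, Cldn8, Csn1s2b, Ddit3, Elf5, Insig1, Krt7, Sdc4 and Wap were named after their values were seen. Members and gene lists were chosen with earlier results of these data known. The test was checked on simulated counts. DESeq2 1.42.0 was an alternative. Coordinates and promoters are GRCm38. Of the listed genes, Norad and Mir99ahg have no row under these symbols. The files' table of all libraries combined was not used.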

Additional observations from a re-analysis of the deposited data

How the results depend on the processing

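Against 299 genes higher and 190 lower, at least 1 of the counts moved by over 1.5 times with DESeq2 (85 higher and 37 lower), with the milk genes left out (484 higher and 341 lower), without proliferating cells (480 higher and 348 lower), with no filter on low counts (432 higher and 322 lower) and with the middle class in the fit (432 higher and 337 lower). With no replicate block, so without the pairing of classes by tumor, it was 0 higher and 0 lower, with 282 and 176 genes at an unadjusted p under 0.05. In cells with few stress UMIs, an alternative chosen after seeing the data, it was 49 higher and 40 lower. Under the other 10 alternatives, all planned, the counts stayed within 1.5 times, from 200 to 402 higher and from 138 to 284 lower. Of 87 called genes named in the text, DESeq2 did not call 39 and kept the direction of all. Scgb1b27 reversed with no upper depth limit (0.92), for quintiles of the Lalba level (3.52), for under 5 against 80 or more (3.27) and without doublets (1.56), and the cause was not tested. In cells with few stress UMIs reversed values were -0.04853 for Malat1, -0.44 for Sfn, -0.11 for Cldn4, 0.21 for Cited4, -0.01345 for Tnfrsf12a, -0.37 for Nfkbia, -1.67 for Cxcl1, -1.36 for Cxcl2, -0.23 for Hspa1a, -0.004033 for Hspa1b and 0.02067 for G0s2, beside -0.49 for Pcna and 0.19 for Elf5, which were not called. Of other genes not called, Cldn10 was at -0.0137 with no replicate block and at -0.07417 for under 5 against 80 or more, Tyms at 0.06787 for quintiles, and with no upper depth limit Pcna was at -0.23 and Erbb2 at -0.03015. Within tumor A and within tumor B alone, with no test, Cldn10 was at 0.23 and -0.12, Pcna at -0.39 and 0.46, and Birc5 at 0.95 and -0.05006, and of the 87 called genes none changed sign, but 50 and 49 of them differed from the value of both tumors together by more than its standard error. Examples are Cdkn1a at 1.17 and 2.94, Apoe at 2.74 and 1.23, Hmox1 at 2.29 and 4.01 and Prol1 at -0.26 and -2.17. The share of low-Lalba cells was 8.63% and 13.6% under 5 per 10,000 and 20.1% and 35.8% under 20, and in tumor B 30.2% in cells of 5000 to 15,000 UMIs and 29.9% after thinning those to 5000 UMIs, the last added after seeing the data. The comparison of this difference with that in PyMT tumors was not run, since their libraries held 8 and 14 high-Lalba cells in the depth window, under the 20 required. Scrublet marked 7 of 4023 cells as doublets. Simulated 2-fold rises on sums of this size were called in 76% of 50 genes and falls to 0.5 in 56%, with 8 unchanged genes called. Smaller differences than these would thus often be missed with 2 tumors. The simulation gave each gene 1 mean and all genes 1 dispersion, with no difference between tumors, so its rates may not hold for the real counts.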

Other observations

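Nuclear genes of the respiratory chain and ATP synthase were mostly not called, with 4 of 77 tested genes lower and none higher in low-Lalba cells. Of their log2 fold changes 72 of 77 were below 0 (median -0.20), against 4592 of 9454 over all genes tested. DESeq2 called 0 of them lower, and 1 was called in cells with few stress UMIs, where the median was -0.10. Of 13 mitochondrially encoded genes, mt-Nd1 and mt-Cytb, subunits of complexes I and III, were lower (-0.31 and -0.24) and none higher, and neither was called by DESeq2 or in cells with few stress UMIs. Cytosolic ribosomal protein genes stayed near 0, with 1 of 80 higher (Rps27, 0.31), 1 lower (Rps27l, -0.33) and a median of 0.07. Of 16 interferon and MHC class I genes, Ifit1 was lower and none higher. It was scarce, at 7.12 and 0.864 against 10.7 and 24.4 CPM (-2.38, edgeR adjusted p = 0.021). Of 16 apolipoprotein and lysosome genes, Apoe and Ctsl were higher and none lower (median 0.09). None of 3 tested hormone-sensing genes was called.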
